A study of Mus musculus with 13 samples.

Results

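The Ikaros zinc finger family was read in RNA-seq counts of mouse Th17 cells, helper T cells known for making IL-17A and IL-17F. Its 5 members are Ikzf1 (Ikaros), Ikzf2 (Helios), Ikzf3 (Aiolos), Ikzf4 (Eos) and Ikzf5 (Pegasus). They were taken by gene symbol from the 56941 gene IDs of the count table, and all 5 were found, counted in every library and kept by the filter on low counts. Naive CD4 T cells from spleen were activated and cultured for 72 hours under conditions that favour Th17 cells. The 3 libraries labelled WT carried the genotype Chaf1bWT. The 3 libraries labelled KO carried Chaf1bfl/fl;Il17fCre+, that is, Chaf1b alleles flanked by recombination sites and a Cre recombinase driven by Il17f, one of the cytokine genes that Th17 cells express. The labels do not say whether the WT cells carried the Cre, and no library with the Cre alone was analysed here. Chaf1b is a subunit of chromatin assembly factor 1, which places histones on newly copied DNA. The labels call the libraries biological replicates without naming animals, so each p-value reflects only the spread among the libraries at hand, which may be technical. Another 7 samples of the series, on chromatin, were not analysed here.

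Ikaros family proteins bind DNA through zinc fingers near their amino terminus and pair with one another through zinc fingers at their carboxyl terminus. They bring the nucleosome remodelling and deacetylase complex (NuRD) and other corepressors to their targets. In T cells Ikaros and Aiolos are abundant, Aiolos is known to silence Il2 during Th17 differentiation, and Helios and Eos are best known from regulatory T cells, where Eos acts as a corepressor with Foxp3. Pegasus is the most divergent member and is found in many tissues. Several members make shortened splice forms that lack DNA-binding fingers. The counts used here sum all exons of a gene and cannot separate such forms.

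The libraries held 35708879 to 45232055 counts each. Chaf1b itself showed no fall in KO, at 541, 438 and 525 counts in the WT replicates against 572, 567 and 498 in the KO replicates. Its log2 fold change was 0.31 ± 0.11 (SE, adjusted p = 0.130). Unless another method is named, each adjusted p is from the quasi-likelihood test of edgeR after Benjamini-Hochberg adjustment. Fits with library quality weights used limma-voom. The deleted part of Chaf1b is not given in the sources used here, so its count cannot check the genotype, and every direction rests on the labels. WT replicate 1 stood apart. The SD of the log2 CPM difference over tested genes was 0.295 and 0.336 between it and the other WT libraries, 0.245 between those, and 0.235 to 0.244 among the KO libraries. Over all 14681 genes tested, 576 were higher and 362 lower in KO (464 and 502 when scaled by library totals with no further factor). Calls numbered 2961 when WT replicate 1 was left out, 366 when WT replicate 2 was, and 295, 314 and 326 when KO replicates 1, 2 and 3 were left out in turn.

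Helios was the only member with an adjusted p under 0.05 in the main edgeR fit. Ikzf2 (ENSMUSG00000025997.14) was counted at 5.0, 5.34 and 6.30 CPM (counts scaled to the library total, TMM-corrected) in WT replicates 1 to 3 and at 8.92, 8.02 and 8.5 CPM in the KO replicates. Every KO library lay above every WT library. From means of 5.55 ± 0.678 and 8.48 ± 0.447 CPM (SD, n = 3 each) it rose 1.53-fold, a log2 fold change of 0.61 ± 0.13 (SE; 95% interval 0.32 to 0.90) whose adjusted p was 0.0218. These levels rest on 205, 205 and 287 WT counts and 313, 306 and 313 KO counts. Leaving out WT replicate 2 ended the call (adjusted p = 0.104), as did leaving out KO replicates 1, 2 or 3 (0.127, 0.0789 and 0.101), while the fold change stayed between 0.54 and 0.71 in all 6 fits that leave out a library.

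Thus 1 of 5 members was called and it was higher. Among all tested genes 6.39% were called in either direction, 3.92% as higher and 2.47% as lower, and among the 5109 genes with a mean of 5 to 50 CPM 7.01% were called. Ikzf2 was also the only member whose groups did not overlap, a separation seen in 26.8% of tested genes. The fitted values of the family ran from -0.41 to 0.61, with 2 above and 3 below 0 and a median of -0.08, beside a median of -0.01 over all tested genes. With 5 members these counts describe the family and set it apart from nothing.

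**Figure D1:**
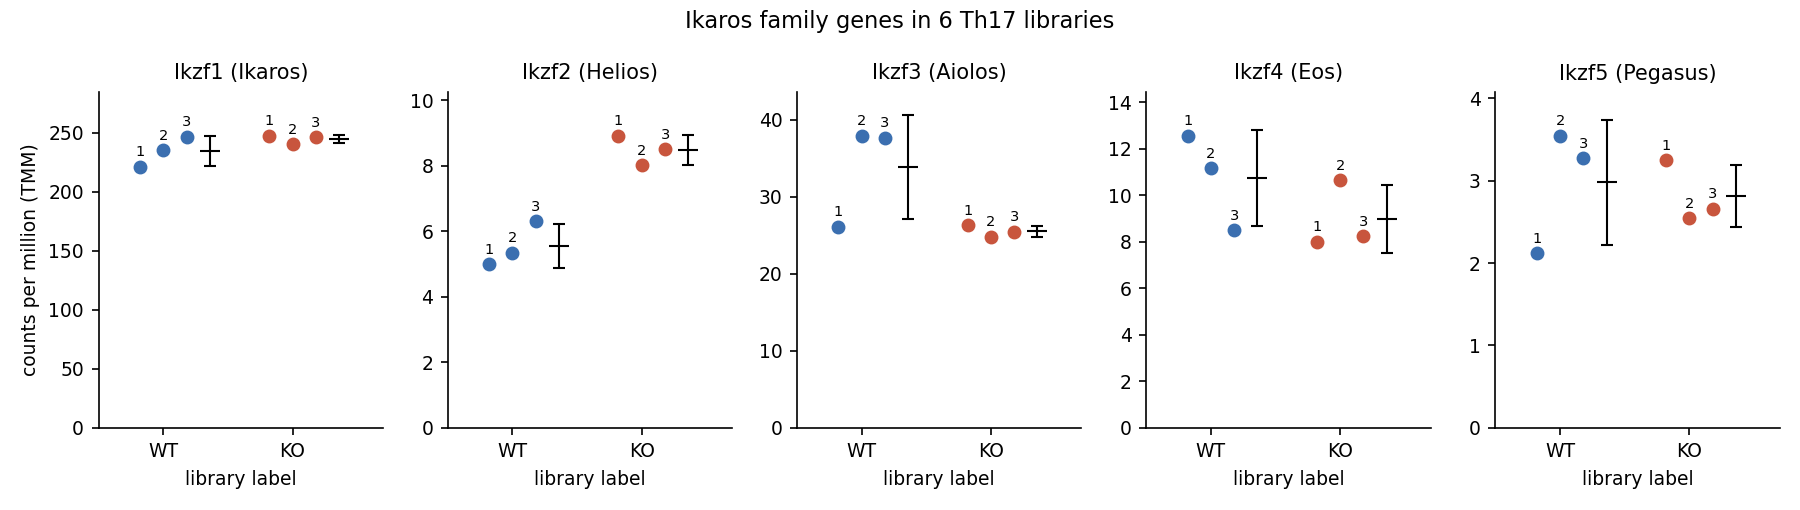
CPM (TMM-scaled, y axis, each panel on its own scale from 0) of the 5 family genes in the libraries labelled WT (blue) and KO (red). Numbers mark the replicate, and black marks give mean and SD (n = 3). The KO points lie above all WT points for Ikzf2, and WT replicate 1 of Ikzf3 lies among the KO points.

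Aiolos differed in 2 of the 3 WT libraries. Ikzf3 (ENSMUSG00000018168.9) was at 26.1, 37.9 and 37.7 CPM in WT replicates 1 to 3 and at 26.3, 24.8 and 25.5 CPM in the KO replicates. WT replicate 1 fell inside the range of the KO libraries and the other WT libraries lay far above it. The group means were 33.9 ± 6.74 and 25.5 ± 0.733 CPM (SD, n = 3), and the log2 fold change of -0.41 ± 0.13 (SE; 95% interval from -0.69 to -0.13) missed the threshold (adjusted p = 0.0930, unadjusted 0.00923). Without WT replicate 1 it was -0.57 with an adjusted p of 7.09e-07, and it was also past the threshold with library quality weights (-0.52, adjusted p = 1.56e-04), with DESeq2 (0.0206) and with no filter on low counts (1.38e-04). In the other 5 fits that leave out a library the adjusted p ran from 0.176 to 0.281. With 923 to 1715 counts per library, counting error is small beside the gap between WT replicate 1 and the other WT libraries.

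Ikaros itself did not differ detectably. Ikzf1 (ENSMUSG00000018654.19) was at 221, 235 and 247 CPM in WT and 248, 241 and 247 CPM in KO. The groups overlapped, with WT replicate 1 the lowest of the 6. Its log2 fold change was 0.06 ± 0.05 (SE; 95% interval -0.05 to 0.17, adjusted p = 0.540), the narrowest interval in the family, from 8692 to 11236 counts per library.

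Eos was variable within both groups. Ikzf4 (ENSMUSG00000002578.19) was at 12.6, 11.2 and 8.5 CPM in WT and at 8.0, 10.6 and 8.23 CPM in KO. WT replicate 3 lay among the KO libraries and KO replicate 2 above it. Its log2 fold change was -0.26 ± 0.16 (SE; 95% interval from -0.62 to 0.10, adjusted p = 0.406), and the value was -0.13 without WT replicate 1 and -0.40 without WT replicate 3 or KO replicate 2.

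Pegasus had the fewest counts, 87 to 149 per library. Ikzf5 (ENSMUSG00000040167.17) was at 2.12, 3.54 and 3.27 CPM in WT and at 3.25, 2.54 and 2.66 CPM in KO. The WT libraries spanned the whole KO range, with WT replicate 1 the lowest of all. The log2 fold change of -0.08 ± 0.23 (SE; adjusted p = 0.881) had a 95% interval from -0.58 to 0.41, so a change of Ikzf5 as large as the fall fitted for Ikzf3 lies inside it.

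The counting used no strand, so a read where genes overlap cannot be told apart between them. In the GRCm38.p6 RefSeq gene table no other gene body overlaps Ikzf2. The body of Ikzf5 overlaps that of Pstk, which had 300 to 531 counts per library. The lncRNA genes Gm11999 at Ikzf1 and Gm26876 at Ikzf4 had at most 9 and 2 counts.

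**Figure D2:**
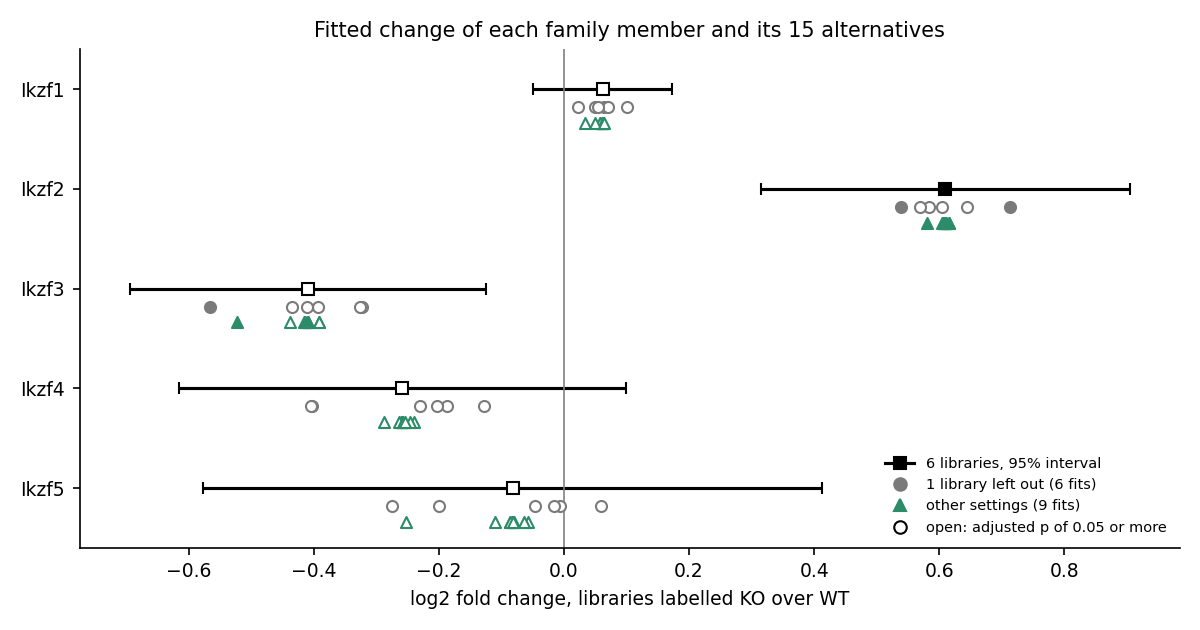
Log2 fold change (x axis, KO over WT) of each member. Squares show the fit on 6 libraries with its 95% interval, circles the 6 fits without 1 library and triangles the 9 other settings, filled where the adjusted p was under 0.05. Ikzf2 stays between 0.54 and 0.71, and the leftmost Ikzf3 point, at -0.57, is the fit without WT replicate 1.

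In the make-up of the family counts, 3 of the 5 shares separated the groups, and none reached 0.05 in its test. Ikzf2 held 1.87%, 1.82% and 2.08% of the summed counts of the 5 members in WT and 3.03%, 2.80% and 2.92% in KO. Ikzf3 held 9.78%, 12.9% and 12.5% in WT and 8.94%, 8.66% and 8.74% in KO. For both genes the groups did not overlap in share, although WT replicate 1 was the WT library nearest to KO for Ikzf3. Ikzf1 held most counts, 82.9%, 80.2% and 81.6% in WT and 84.2%, 83.9% and 84.6% in KO. Each of these 3 shares gave p = 0.1 in the two-sided exact permutation test, the smallest value that 3 against 3 libraries allow (0.167 after Benjamini-Hochberg adjustment over the 5 shares), and Ikzf4 and Ikzf5 gave exact permutation p = 0.3 and 0.8. The shares of a library add up to the whole, so a lower share of 1 member raises the others. A share of counts depends on transcript length and does not rank the members by level. The family total was 267 to 303 CPM in WT and 287 to 294 CPM in KO, so the WT libraries spanned the KO range.

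Helios was also set against Aiolos as a ratio of counts. There were 19.1, 14.1 and 16.7 Ikzf2 counts per 100 Ikzf3 counts in WT and 33.9, 32.3 and 33.4 in KO. All 3 KO ratios lay above all WT ratios, including that of WT replicate 1. The mean ratio went from 16.6 ± 2.52 to 33.2 ± 0.813 (SD, n = 3), a factor of 1.99. The ratio was chosen after one gene was seen higher and the other lower, which sets its direction and enlarges its size, so it is a description with no test. Per 100 Ikzf1 counts, Ikzf2 went from 2.36 ± 0.168 to 3.46 ± 0.134 and Ikzf3 from 14.4 ± 2.28 to 10.4 ± 0.170 (SD, n = 3).

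**Figure D3:**
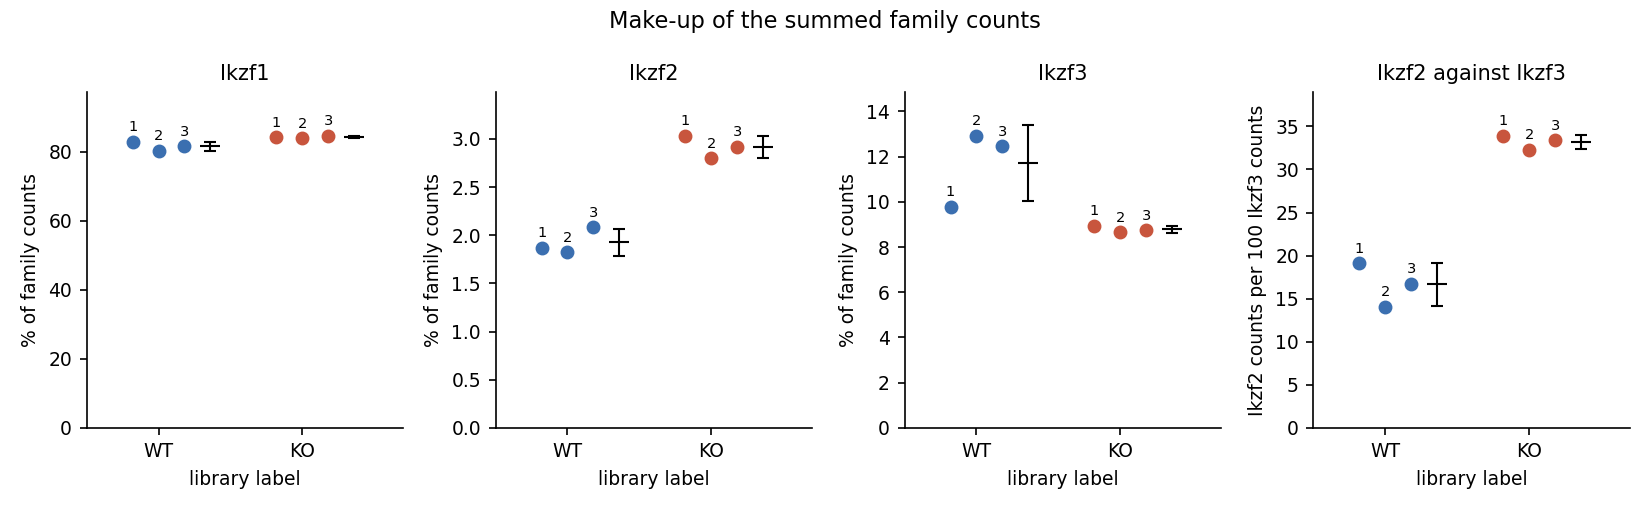
Share of the summed counts of the 5 members (percent, first 3 panels) held by Ikzf1, Ikzf2 and Ikzf3, and Ikzf2 counts per 100 Ikzf3 counts (last panel), per library. Black marks give mean and SD (n = 3). The last panel shows 14.1 to 19.1 in WT and 32.3 to 33.9 in KO, with no overlap.

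Of 15 genes of the NuRD complex, the main corepressor of Ikaros proteins, 1 was higher and none lower, a share near the 6.39% called among all tested genes. That gene, Gatad2a, which encodes a zinc finger subunit of NuRD, went from 131 ± 5.42 to 151 ± 2.00 CPM (SD, n = 3; log2 fold change 0.20 ± 0.05, adjusted p = 0.0367). The ATPase gene Chd4 was at 0.05 and the deacetylase genes Hdac1 and Hdac2 at 0.15 and -0.04 on the log2 scale, none of them called. The list's median was 0.07 and 7 of its 15 members had an unadjusted p under 0.05, beside 21.1% of all tested genes. The Gatad2a call was lost without WT replicates 2 or 3 or any KO library (adjusted p from 0.0697 to 0.166) and when scaled by library totals (0.0679). Without WT replicate 1, 6 NuRD genes passed, 5 of them higher, beside 19.7% of all genes tested in that fit. With library quality weights 8 did, beside 2934 of 14681 genes.

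None of 9 other chromatin partners passed in edgeR, DESeq2 or limma-voom, and none had an unadjusted p under 0.05. For a list of this length the 6.39% called among all genes amounts to less than 1 gene, so the absence of calls is no result about the list. This list held the Sin3 and CtBP corepressors, the remodeller Smarca4 and the H3K27 methyltransferase core Ezh2, Suz12 and Eed. Its fitted values ran from -0.06 to 0.11. Smarca4 was at 0.01, Sin3b at 0.09 and Ctbp1, the partner of Eos, at 0.03 on the log2 scale.

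Other genes act on Ikaros proteins after translation. Cereblon (Crbn) is the substrate receptor through which lenalidomide and related drugs degrade Ikaros and Aiolos, with Ddb1, Cul4a, Cul4b and Rbx1 as the rest of its ligase. Casein kinase 2 phosphorylates Ikaros and protein phosphatase 1 removes those phosphates. With all 6 libraries and no quality weights, none of these 11 genes was called in edgeR, DESeq2 or limma-voom. Among them 1, the kinase subunit gene Csnk2b (0.15 ± 0.05, adjusted p = 0.0780), had an unadjusted p under 0.05. At 6.39% of all genes called, less than 1 call falls on a list of this length too. Crbn was at -0.04, Ddb1 at -0.02, and the phosphatase genes Ppp1ca and Ppp1cb at 0.14 and -0.06 on the log2 scale. With library quality weights 2 genes of this list passed, beside 2934 of 14681 genes. Without WT replicate 1, 3 did, beside 19.7% of all genes tested in that fit. The genes of this list that passed were higher in each of these fits. On a list of 11 genes, counts this small do not set it apart from all genes.

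Of 11 tested genes reported elsewhere as targets of Ikaros proteins 2 rose and 1 fell, beside 3.92% higher and 2.47% lower among all tested genes, and Ptcra, Dntt and Igll1, expressed in immature lymphocytes, had 8 counts or fewer in every library and were not tested. Ifng, the Th1 cytokine gene that Ikaros can repress, had 1374, 1927 and 2614 WT counts against 5294, 4742 and 4554 KO counts and rose 2.82-fold (log2 fold change 1.5 ± 0.20, adjusted p = 0.00766). The gene of T-bet, Tbx21, which drives Th1 fate, rose 2.08-fold (1.05 ± 0.12, adjusted p = 5.96e-04). Myc fell by 0.27 on the log2 scale (adjusted p = 0.0466), a call lost in 5 of 6 fits without a library, with DESeq2 size factors (0.0510) and with limma-voom (0.0604). Ifng missed the threshold when low counts were not filtered (0.0618). The list's median was -0.07, and the notch target Hes1, at 6 to 37 counts per library, was not called (adjusted p = 0.157).

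Il2, the gene silenced by Aiolos in the published work, is described for that reason. Its WT counts were 51804, 64640 and 82765 and its KO counts 79592, 79259 and 79959, or 1589 ± 290 and 2172 ± 94.6 CPM (SD, n = 3). In CPM every KO library lay above every WT library, and WT replicate 1 had the least Il2. That library also had the least Ikzf3 of the WT libraries, but it stood apart over all genes. A link between Ikzf3 and Il2 was not tested. For Il2 the log2 fold change was 0.45 ± 0.13 (SE; 95% interval from 0.15 to 0.75, adjusted p = 0.0913), and without WT replicate 1 it was 0.31 with an adjusted p of 3.49e-07. Il2 also passed with library quality weights (0.0340). The other 5 fits without a library gave adjusted p from 0.0691 to 0.213, and the fit with no filter on low counts gave 0.347.

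**Figure D4:**
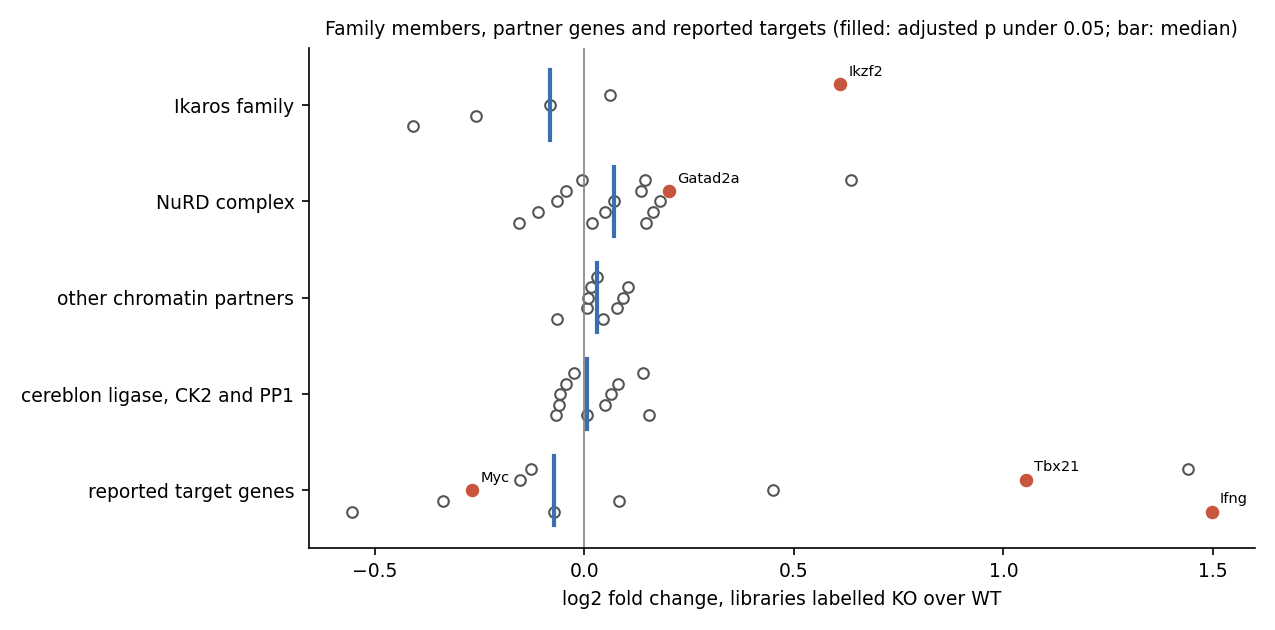
Log2 fold change (x axis, KO over WT) of the family members, 3 lists of partner genes and the reported targets, each point 1 tested gene, spread vertically for legibility only. Filled points passed an adjusted p of 0.05 and bars mark medians, which lie between -0.08 and 0.07 in all 5 rows.

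Myc, the called target that fell, had no promoter window in the reference used here. The promoter windows of the 2 targets that rose are shown with the Ikaros consensus TGGGAA (or TTCCCA for the other strand) in capitals. They come from RefSeq on GRCm38.p6 and span the start of the gene, written 5′ to 3′ on the strand of the gene. The Tbx21 window, chr11:97115282-97115581 on the minus strand, holds 1 match and the Ifng window, chr10:118440796-118441095 on the plus strand, holds none. Among the 32851 RefSeq windows of 300 bases, 25.6% hold the motif, so a match in 1 of 2 windows says nothing about binding, and no match says only that these letters are not in the window.
Tbx21: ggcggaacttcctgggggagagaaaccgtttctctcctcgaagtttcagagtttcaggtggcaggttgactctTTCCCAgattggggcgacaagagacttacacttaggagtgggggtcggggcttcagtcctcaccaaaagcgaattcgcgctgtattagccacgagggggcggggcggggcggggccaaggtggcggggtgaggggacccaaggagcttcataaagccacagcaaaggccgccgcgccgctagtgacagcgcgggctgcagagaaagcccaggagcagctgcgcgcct
Ifng: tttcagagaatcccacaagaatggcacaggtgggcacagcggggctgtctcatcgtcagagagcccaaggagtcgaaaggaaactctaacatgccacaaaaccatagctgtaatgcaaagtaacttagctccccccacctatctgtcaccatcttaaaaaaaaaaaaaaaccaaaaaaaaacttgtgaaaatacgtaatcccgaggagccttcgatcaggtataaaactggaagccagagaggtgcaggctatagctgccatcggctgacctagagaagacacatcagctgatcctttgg

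Helios is also used as a marker of regulatory T cells, so the other markers of those cells were read beside it. Foxp3, which defines regulatory T cells, had 254, 291 and 419 WT counts against 150, 150 and 152 KO counts, the opposite direction to Ikzf2, and fell by 0.90 ± 0.16 on the log2 scale (adjusted p = 0.00841, but 0.0533 to 0.0593 without a KO library). The ectoenzyme gene Nt5e fell by 0.71 ± 0.16 and the inhibitory receptor gene Tigit and the actin-capping gene Capg rose by 0.31 ± 0.06 and 0.24 ± 0.06, so 2 of 11 markers were higher and 2 lower, beside 3.92% and 2.47% of all tested genes. Each of these 3 calls failed in 3 or more of the 6 fits that leave out a library. The summed list was at 2389, 2014 and 1931 CPM in WT and 2125, 2130 and 2082 CPM in KO, with WT above and below KO (exact permutation p = 1), and none of its markers was at 0. Most of that sum came from Il2ra, Capg and Ctla4, with means of 1083, 569 and 273 CPM over the 6 libraries. Foxp3 had a mean of 5.89 CPM, so the sum hardly reflects it. In bulk RNA fewer cells of a type and less RNA per cell cannot be told apart.

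**Figure D5:**
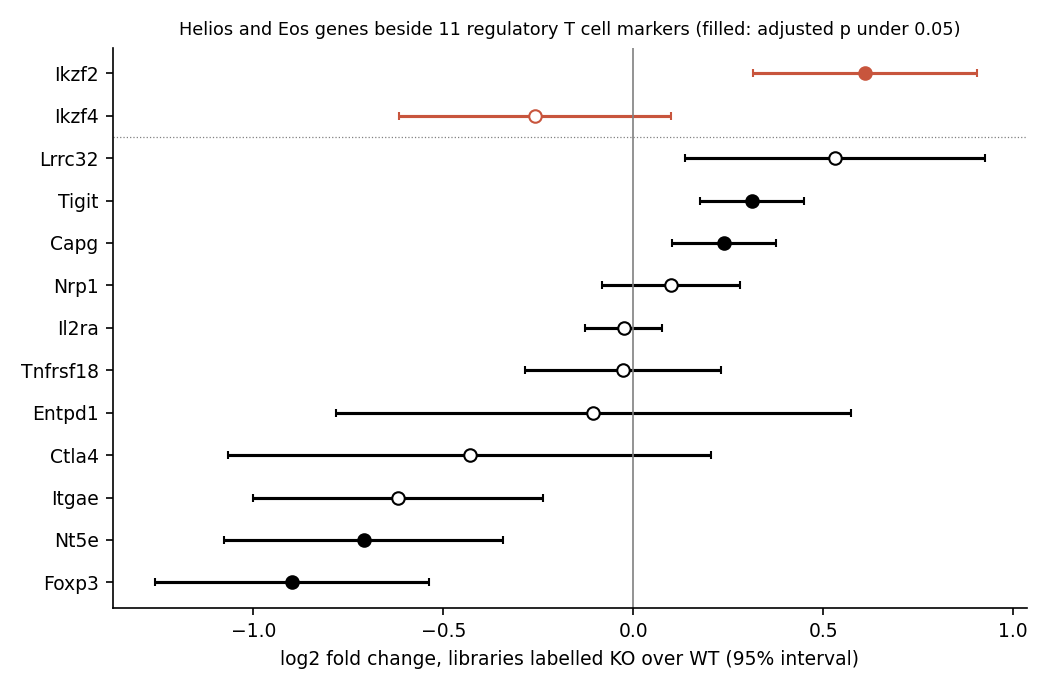
Log2 fold change (x axis, KO over WT) with 95% interval for Ikzf2 and Ikzf4 (red) and 11 regulatory T cell markers (black), filled where the adjusted p was under 0.05. Ikzf2 sits at 0.61 and Foxp3 at -0.90, on opposite sides of 0.

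Markers of other cells were read in the same way. The summed gamma delta T cell markers were at 50.7 to 62.6 CPM in WT and 95.8 to 101 CPM in KO, mostly Trdc. Of these 5 genes 4 were called higher, beside 3.92% of all tested genes. The remaining one, Sox13, was fitted lower in KO and was not called (log2 fold change -0.38 ± 0.47, adjusted p = 0.704). It had 30, 18 and 20 WT counts against 20, 18 and 8 KO counts. B cells are rich in Ikaros and Aiolos. Their 7 markers summed to 68.3 to 81.6 CPM in WT and 96.9 to 103 CPM in KO, mostly Ighm, which rose with Cd79b while Ebf1 fell. The B cell gene Ms4a1 had 4 counts or fewer in every library and Pax5 had 0 in every KO library. Myeloid markers summed to 2.44 to 2.84 and 6.27 to 7.89 CPM. Of the 4 tested, 1 was called, beside 6.39% of all tested genes. It was Fcer1g, an Fc receptor chain also made by other cells, which went from 0.770 ± 0.285 to 4.27 ± 0.875 CPM (SD, n = 3). Adgre1 (0.749 to 1.44 CPM, adjusted p = 0.142), Lyz2 and Itgam also had higher means in KO, while Cd14 and Csf1r had lower ones. Dendritic cell markers summed to 18.1 to 19.4 and 20.8 to 23.1 CPM, nearly all of it Zbtb46, which was not called (adjusted p = 0.210). The NK cell genes Ncr1, Klrb1c and Klra8 had no count, which allows up to 3 counts per library, and the fourth NK marker, Klre1, had 49, 14 and 14 WT counts against 10, 10 and 5 KO counts (adjusted p = 0.205). The CD8 genes Cd8a and Cd8b1 summed to 14.1 to 16.0 and 12.4 to 16.6 CPM. The Th17 markers fell from 253 to 346 CPM in WT to 140 to 147 CPM in KO. Of these 8 genes 6 were called lower, beside 2.47% of all tested genes. None of the 5 general T cell markers was called, beside 6.39% of all tested genes. Cd4 just missed the threshold (log2 fold change -0.36 ± 0.09, adjusted p = 0.0504), and Cd5 was at -0.25 ± 0.07 (adjusted p = 0.0642). For both, every KO library lay below every WT library, and for the other 3 markers the groups overlapped. The 5 markers summed to 1456 to 1826 CPM in WT and 1396 to 1431 CPM in KO. Each sum that separated the groups gave exact permutation p = 0.1, the smallest possible (0.129 adjusted over the 9 lists). The part of these cells in the Ikzf2 and Ikzf3 values was not tested.

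The genes most like each member over the 6 libraries were found by the root mean square difference of centred log2 CPM profiles among 9253 genes. For Ikzf2 they were Spry4, an inhibitor of receptor signalling to ERK (0.059), Plxdc2, a membrane protein gene (0.065), and Hmox1, haem oxygenase 1 (0.075), which rose by 0.55, 0.65 and 0.67 on the log2 scale. Spry4 had adjusted p-values of 0.0730, 0.0906 and 0.0885 once WT replicate 2, KO replicate 1 and KO replicate 3 were left out in turn, which ended its call. For Ikzf3 they were Jmy, an actin nucleator and cofactor of p53 (0.024), Abcb4, a phospholipid transporter (0.049), and Prkca, protein kinase C alpha (0.052). Their levels in WT replicates 1 to 3 were 49.6, 71.3 and 69.3 CPM for Jmy, 14.9, 23.2 and 23.0 CPM for Abcb4, and 113, 156 and 162 CPM for Prkca. All 3 thus shared the low value in WT replicate 1. Jmy and Abcb4 passed without that library (adjusted p = 2.88e-08 and 4.47e-06) and did not with it (0.0970 and 0.116). Prkca passed with it at 0.0405 but lost its call in the 5 fits without another library, at up to 0.140. Nearest to Ikzf1 were Nudcd2 (0.011), Gemin5 (0.014) and Cct6a (0.014), and nearest to Ikzf4 were Slc4a8 (0.055), Cradd (0.059) and Gpr183 (0.067), none of them called. The 6 libraries share 2 labels and 1 library that stands apart, and likeness over them is a description only. All these genes were chosen for that likeness, so their directions, calls and values in WT replicate 1 largely follow from the choice.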

How the data were processed

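RNA was extracted with TRIzol and made into libraries with TruSeq reagents, per the labels' protocols. The authors deposited raw counts per gene made with featureCounts 2.0.1 on GENCODE vM33 exons, per the file headers, with no option for strand, multi-mapping reads or read pairs (KO replicate 1's command lacks its option names). Aligner version and genome build: not given in the sources used here. The 6 columns were matched to libraries through the command that names the library and its alignment file. In the unit record the deposited column of WT replicate 2 is entered as other, but it holds raw counts like the rest. Of counts from 1 to 20, between 65.6% and 67.7% per library were even, and whether both reads of a pair were counted was not tested.

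Gene IDs were matched to symbols without version (51948 of 56941). All genes were fitted with edgeR 4.0.16 (R 4.3.3; default filter on low counts, TMM factors, robust quasi-likelihood F-test), with Benjamini-Hochberg adjustment over the 14681 genes tested and a threshold of 0.05. CPM values use TMM library sizes. The SE was obtained as the size of the log2 fold change divided by the root of its F, and 95% intervals are not adjusted for the number of genes. Shares and summed markers were compared with the two-sided exact permutation test over libraries, whose smallest p for 3 against 3 is 0.1. A per-length composition had been planned, but the table has no gene lengths, so shares of counts were used and levels are not compared between genes. The model was tested on simulated data. Alternatives used edgeR with other factors or filters, DESeq2 1.42.0, limma 3.58.1 and fits without each library.

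The members and lists were chosen with earlier results of these data known. Named were all members, the called genes of each pathway list (or its 3 genes with the highest mean CPM), and for each member of at least 5 CPM the 3 most similar profiles. Other genes were named after their values were seen.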

Additional observations from a re-analysis of the deposited data

How the results depend on the processing

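Ikzf1, Ikzf2, Ikzf3 and Ikzf4 kept their direction in all 15 alternatives each. Ikzf2 passed in 11, including every alternative that kept all 6 libraries, with log2 fold changes of 0.54 to 0.71 in the fits without a library. Ikzf3 passed in 4: with no filter on low counts (-0.41), with DESeq2 (-0.41), with library quality weights (-0.52) and in 1 of the fits without a library, which ran from -0.57 to -0.32. Ikzf5 ran from -0.27 to 0.06 in such fits and was above 0 without WT replicate 2 (0.059, adjusted p = 0.942). Family members past the threshold numbered 2 with no filter, with DESeq2 and with quality weights, and 0 to 2 without a library. Over all genes the count was 1568 with no filter and 2934 with quality weights, and ran from 295 to 2961 without a library. NuRD genes past the threshold numbered 0 when scaled by library totals, 8 with quality weights and 0 to 6 without a library, and genes of the cereblon ligase, CK2 and PP1 2 with quality weights and 0 to 3 without a library. The cause was not tested. In the fit with a replicate block 671 genes passed, Ikzf2 among them (0.62, adjusted p = 0.0426), Ikzf3 did not (-0.39, 0.106), and 0 NuRD genes did, as Gatad2a was at 0.0801. Same-numbered libraries did not deviate together (r = -0.04, -0.04 and 0.03 across 14681 genes). With 3 libraries per group this cannot exclude pairing by animal or batch, and the labels name no animals. At 87 to 149 counts per library, Ikzf5 is the member whose precision depth limits most.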
